A study of Mus musculus with 6 samples.

Results

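The 5 genes described here, Pou4f1, Pou4f2, Pou4f3, Isl1 and Isl2, encode the Pou4f (Brn3) POU-homeodomain factors and the Islet LIM-homeodomain factors of retinal ganglion cells. They were taken by symbol from the 27998 genes counted, and each symbol had 1 gene identifier. Their UMIs (unique molecular identifiers, 1 per captured RNA molecule) were followed across 5 cell type labels and 3 genotypes in 67050 retinal cells of mouse embryos at embryonic day 14. Of these cells, 7357 carried the authors' ganglion cell label. The ganglion cell label was checked against 9 ganglion markers that are not among the 5 genes. With UMIs pooled over the 6 libraries, all 9 had their highest level in it. Within each genotype only their sum was compared, and it was also highest there.

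Each genotype had 2 libraries of 10x Genomics 3' v2 single-cell RNA-seq. The Bax het Atoh7 null group was labelled het for Bax and null for Atoh7. The Bax null group was labelled null for Bax and wild type for Atoh7, and the Bax null Atoh7 null group null for both. No group had both genes intact, so every group carried a Bax mutation, and the strain, the alleles and the number of animals per library were not given in the sources used here. Because nothing says that the 2 libraries of a group came from separate animals, the p-values measure only the spread between these libraries, which may be technical.

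Atoh7 is a bHLH factor of neurogenic retinal progenitors that is needed for most ganglion cells to form, and Bax is an effector of programmed cell death that removes many newborn ganglion cells. Downstream of Atoh7, Pou4f2 and Isl1 act together in young ganglion cells to switch on genes for axon growth and neuronal identity. Pou4f1 and Pou4f3 follow and help to define ganglion cell subtypes, and Isl2 marks a subset of ganglion cells whose axons cross to the opposite side of the brain.

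The stretch just upstream of the start site is shown for the 3 genes with the most UMIs in ganglion cells, because E-boxes are the motifs that bHLH factors such as Atoh7 bind. The 250 bases are from RefSeq (GRCm38.p6), written 5′ to 3′ on the strand of the gene, with each E-box (CANNTG, which reads the same on both strands) in capitals. Of the 5 members, 4 had a window in that table.

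Pou4f1, chr14:104468000-104468249, minus strand: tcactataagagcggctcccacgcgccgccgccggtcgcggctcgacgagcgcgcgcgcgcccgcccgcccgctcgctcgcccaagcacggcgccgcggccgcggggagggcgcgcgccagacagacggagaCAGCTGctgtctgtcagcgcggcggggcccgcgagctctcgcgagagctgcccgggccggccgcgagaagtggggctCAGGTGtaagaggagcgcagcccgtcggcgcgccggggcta

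Pou4f2, chr8:78436648-78436897, minus strand: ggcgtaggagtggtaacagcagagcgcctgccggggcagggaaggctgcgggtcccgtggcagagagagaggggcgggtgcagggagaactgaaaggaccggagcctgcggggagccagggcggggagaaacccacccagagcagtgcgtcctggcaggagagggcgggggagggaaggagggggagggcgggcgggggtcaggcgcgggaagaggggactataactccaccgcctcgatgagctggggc

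Isl1, chr13:116309689-116309938, minus strand: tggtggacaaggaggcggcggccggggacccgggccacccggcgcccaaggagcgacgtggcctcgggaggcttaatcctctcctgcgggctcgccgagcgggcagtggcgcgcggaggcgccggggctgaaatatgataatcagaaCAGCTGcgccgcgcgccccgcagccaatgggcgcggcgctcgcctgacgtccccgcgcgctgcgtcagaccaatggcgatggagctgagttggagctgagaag

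The Pou4f1 window held 2 E-boxes and the Isl1 window 1, and the Pou4f2 window held 0. In each of the first pair, 1 E-box was CAGCTG. Among 32851 windows of the same length, 66.22% held a CANNTG and 13% that form. TAAT, a core that many homeodomain proteins bind, was present at 2 places in the Isl1 window on either strand, against 54.92% of all windows with at least 1. A match describes the letters only.

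In GENCODE coordinates for GRCm38, Pou4f1 lies at chr14:104461676-104467999, Pou4f2 at chr8:78433010-78436645 and Isl1 at chr13:116298281-116309689, all on the minus strand. Pou4f3 lies at chr18:42394539-42397249 and Isl2 at chr9:55538672-55546180, both on the plus strand. Isl2 overlaps the antisense gene Gm17226. How the counting treated strand was not given in the sources used here.

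Libraries held between 22463515 and 66594431 UMIs, and their ganglion cells between 1913889 and 10906998. The Bax null libraries stood apart in every cell type. Their ganglion cells had median totals of 5578 and 6683 UMIs against 1834 to 2624 in the other 4 libraries, and their shallowest cell had 500 UMIs against 735 to 1163. The scaling factors that edgeR gave by its TMM method (a trimmed mean of log ratios) in ganglion cells were 0.783 and 0.768 in the Bax null libraries and 1.08 to 1.21 elsewhere. With library totals alone, the median of all genes in ganglion cells moved by 0.63 on the log2 scale for Bax null Atoh7 null minus Bax null, and by 0.50 for Bax het Atoh7 null minus Bax null. Log2 changes below are therefore TMM-scaled, with the value under library totals beside them. For every comparison with Bax null, library batch and genotype cannot be told apart.

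Atoh7 itself had 0 UMIs in all cells of the 4 Atoh7 null libraries, against 376 and 458 UMIs in the Bax null libraries. Bax, read from 3' tags that may lie outside the deleted part, stood in ganglion cells at 251 and 185 CPM (counts of a gene scaled to the library's total in that cell type) with Bax het Atoh7 null. It stood at 30.3 and 26.7 CPM in the Bax null libraries. In Bax null Atoh7 null it stood at 28.1 CPM in replicate 2, and at 85.2 CPM in the library labelled replicate 1, which goes against that label. The 2 libraries labelled Bax null Atoh7 null also shared 2596 cell barcodes, which is 22.0% of the cells of replicate 2 and 17.6% of those of replicate 1. Other library pairs shared 1.36% to 2.09% of the smaller library. Of the shared barcodes, 89.4% had the same cell type label in both libraries, and the median ratio of their UMIs was 0.380 (quartiles 0.372 and 0.390). Among ganglion cells of the library labelled replicate 1, 237 (20.6%) had such a barcode. Results are therefore also given with shared barcodes counted once and without that library.

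Across cell types, the ganglion cell label held the highest level of Pou4f1, Pou4f2 and Isl1 in all 6 libraries, and of Pou4f3 in the 5 libraries where it was found, whereas Isl2 was highest in cones. Cell types were clustered by the authors on these same cells, so the levels by type are a description. Isl1 ranged from 459 to 717 CPM in ganglion cells (median 532), from 8.60 to 37.3 CPM in neurogenic cells and from 10.1 to 33.7 CPM in cones. Pou4f1 ranged from 112 to 194 CPM in ganglion cells, followed by 14.9 to 44.8 CPM in cones, 9.65 to 24.7 CPM in neurogenic cells and 7.22 to 21.8 CPM in cells labelled horizontal. Pou4f2 ranged from 34.5 to 82.6 CPM in ganglion cells and reached at most 6.88 CPM in any other type. In progenitors Isl1 stood at 1.82 to 4.23 CPM and Pou4f1 at 1.09 to 4.03 CPM, the lowest of the 5 types. For Pou4f1 the neighbouring types (cones, neurogenic cells and cells labelled horizontal) overlapped in range, and so did those for Isl1.

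**Figure D1:**
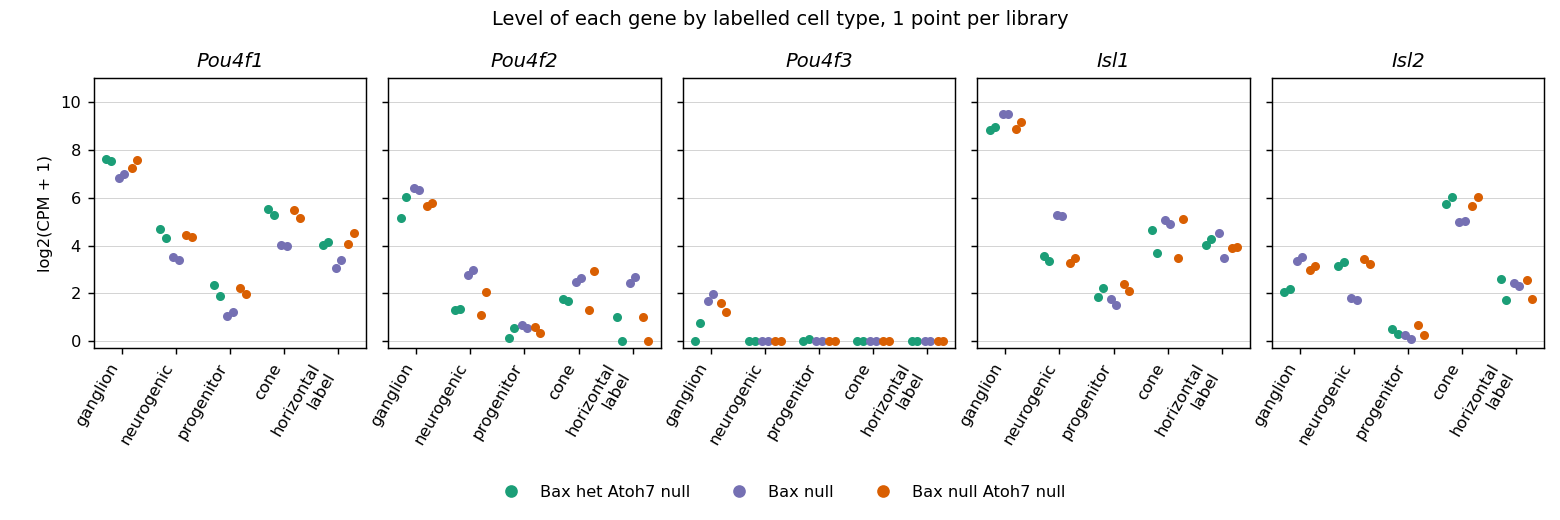
Level of each gene, as log2(CPM + 1) on the vertical axis, in the 5 labelled cell types, with 1 point per library coloured by genotype. Pou4f1, Pou4f2, Isl1 and, where it was found, Pou4f3 peak in ganglion cells, while Isl2 peaks in cones, and the Bax null libraries lie apart from the other 4 in neurogenic cells for Isl1, Pou4f2, Pou4f1 and Isl2.

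Isl2 stood in cones at 30.9 and 31.5 CPM in the Bax null libraries, against 51.9 and 64.5 CPM with Bax het Atoh7 null and 49.1 and 65.1 CPM with Bax null Atoh7 null. In ganglion cells of the same libraries it stood, in the same order, at 9.26 and 10.6, 3.14 and 3.55, and 6.77 and 7.91 CPM. The cone level was above the ganglion cell level in all 6 libraries. Cones took 356 of the 935 Isl2 UMIs and ganglion cells 264, but the order of these types was not the same in every group. Ganglion cells held 54.5% and 60.4% of a library's Isl2 UMIs in the Bax null libraries, against 22.5% and 18.8% in cones. In the Atoh7 null libraries they held 4.72% to 15.3%, against 41.7% to 56.1% in cones. Overlap with its antisense gene means that some Isl2 UMIs may not be Isl2 RNA.

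UMIs of Pou4f1 and Isl1 did not keep 1 ratio across cell types. The number of Pou4f1 UMIs per Isl1 UMI was 0.156 to 0.423 in ganglion cells and 0.476 to 4.29 in cones, and it was higher in cones in every library. Isl2 UMIs per Isl1 UMI were 0.00683 to 0.0149 in ganglion cells and 0.952 to 5.50 in cones.

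Most UMIs of the Pou4f and Isl1 genes lay in the few ganglion cells. Ganglion cells were 6.93% to 17.3% of a library's cells, and held 82.5% to 90.1% of its Pou4f2 UMIs and 85.1% to 92.7% of its Isl1 UMIs. Of Pou4f1 UMIs they held 86.1% and 86.2% in the Bax null libraries but 56.7% to 71.0% in the 4 Atoh7 null libraries, where each of the other types held a larger share. Progenitors, for example, held 6.23% to 12.5% there, against 3.08% and 3.33% in the Bax null libraries. Of the 66 Pou4f3 UMIs, 65 were in ganglion cells and 1 was in a progenitor.

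The main comparison in ganglion cells asked what the loss of Atoh7 did to these genes while cells that would die were kept by the loss of Bax (Bax null Atoh7 null minus Bax null). Pou4f2, Isl1 and Isl2 fell, and Pou4f1 did not pass the test. Pou4f2 and Isl1, the pair that acts first after Atoh7, fell by 1.25 and 1.09 on the log2 scale. In this comparison 52.7% of 10586 genes were called (adjusted p under 0.05), 26.2% as higher and 26.5% as lower, so the 3 falls among 4 tested members come from a setting where many genes moved. For Bax het Atoh7 null relative to Bax null, 50% were called, 25% as lower, and the same 3 members fell. Calls come from edgeR's quasi-likelihood test with Benjamini-Hochberg adjustment over all genes.

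Isl1 had the highest counts. Its ganglion cell level was 717 and 715 CPM in the Bax null libraries, against 459 and 496 CPM with Bax het Atoh7 null and 462 and 569 CPM with Bax null Atoh7 null. Both Bax null libraries lay above all 4 Atoh7 null libraries, and the 2 Atoh7 null groups overlapped. By edgeR, Isl1 fell by 1.09 (log2, SE 0.115, adjusted p = 7.25e-06) with Bax null Atoh7 null against Bax null and by 1.07 (SE 0.115, adjusted p = 9.73e-06) with Bax het Atoh7 null relative to Bax null. With library totals alone the changes were -0.47 and -0.58, both called, where 9.27% and 9.43% of genes were called lower. Without the library labelled replicate 1 of Bax null Atoh7 null the first was -0.97, and with shared barcodes counted once it was -1.12.

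Pou4f2, which drives ganglion cell differentiation and axon growth, stood at 82.6 and 79.1 CPM in the Bax null libraries, against 34.5 and 64.2 CPM with Bax het Atoh7 null and 49.4 and 54.0 CPM with Bax null Atoh7 null. Again the highest levels were in the Bax null libraries, and the 2 Bax het Atoh7 null libraries spread most, with 66 and 181 UMIs. Pou4f2 fell by 1.25 (log2, SE 0.174, edgeR adjusted p = 6.52e-05) with Bax null Atoh7 null and by 1.14 (SE 0.175, adjusted p = 1.67e-04) with Bax het Atoh7 null, both relative to Bax null. The second was -0.81 without replicate 1 of Bax het Atoh7 null and -1.74 without replicate 2. With library totals alone the changes were -0.64 and -0.66, both called. The first was -1.22 without the library labelled replicate 1 of Bax null Atoh7 null and -1.29 with shared barcodes counted once.

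Isl2 rested on 6 to 116 UMIs per library in ganglion cells, and its levels there (above) were highest in both Bax null libraries and lowest with Bax het Atoh7 null. It fell by 1.05 (log2, SE 0.235, edgeR adjusted p = 0.00233) with Bax null Atoh7 null and by 2.04 (SE 0.290, adjusted p = 9.68e-05) with Bax het Atoh7 null, both relative to Bax null. The first call was lost with library totals alone (-0.44, adjusted p = 0.12) and with DESeq2 (-1.06, adjusted p = 0.0509). It held without the library labelled replicate 1 of Bax null Atoh7 null (-0.97, adjusted p = 0.0206).

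Pou4f1, which follows Pou4f2 and Isl1 in young ganglion cells, was not called with TMM scaling. It stood at 112 and 126 CPM in the Bax null libraries, against 194 and 186 CPM with Bax het Atoh7 null and 149 and 189 CPM with Bax null Atoh7 null. All 4 Atoh7 null libraries lay above both Bax null libraries, as 72.2% of all genes did in the first contrast and 67.2% in the second. For Pou4f2, Isl1 and Isl2 the Atoh7 null libraries lay below, as 13.9% and 16% of genes did. The TMM-scaled change was -0.10 (SE 0.110, edgeR adjusted p = 0.449) for Bax null Atoh7 null minus Bax null, while library totals alone gave 0.51 (adjusted p = 0.00163, where 60.8% of genes were called higher), so its direction depends on the scaling. For Bax het Atoh7 null minus Bax null the values were 0.18 (adjusted p = 0.179) and 0.68 (adjusted p = 2.25e-04). Without the library labelled replicate 1 of Bax null Atoh7 null the first value was 0.03.

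Pou4f3, linked to a subset of ganglion cells, was rare. Ganglion cells held 0 and 2 Pou4f3 UMIs with Bax het Atoh7 null, 23 and 32 in the Bax null libraries, and 5 and 3 with Bax null Atoh7 null. The count of 0 allows up to 1.57 CPM in that library (3 UMIs of its total), against 2.20 and 2.93 CPM in the Bax null libraries. These ganglion cell counts were too low to pass the filter. Summed over all cells, Pou4f3 fell by 2.13 (log2, SE 0.531, edgeR adjusted p = 0.00919) with Bax null Atoh7 null and by 3.45 (SE 0.660, adjusted p = 0.00258) with Bax het Atoh7 null, both relative to Bax null, in tests where 56.4% and 55.8% of genes were called. The first call was lost without Bax null replicate 2 (-1.91). The second rested on 0 and 3 Pou4f3 UMIs with Bax het Atoh7 null, and was -2.49 without its replicate 1 and -7.44 without its replicate 2, which leaves that group at 0. Fewer ganglion cells and less RNA per ganglion cell cannot be told apart in such a sum.

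**Figure D2:**
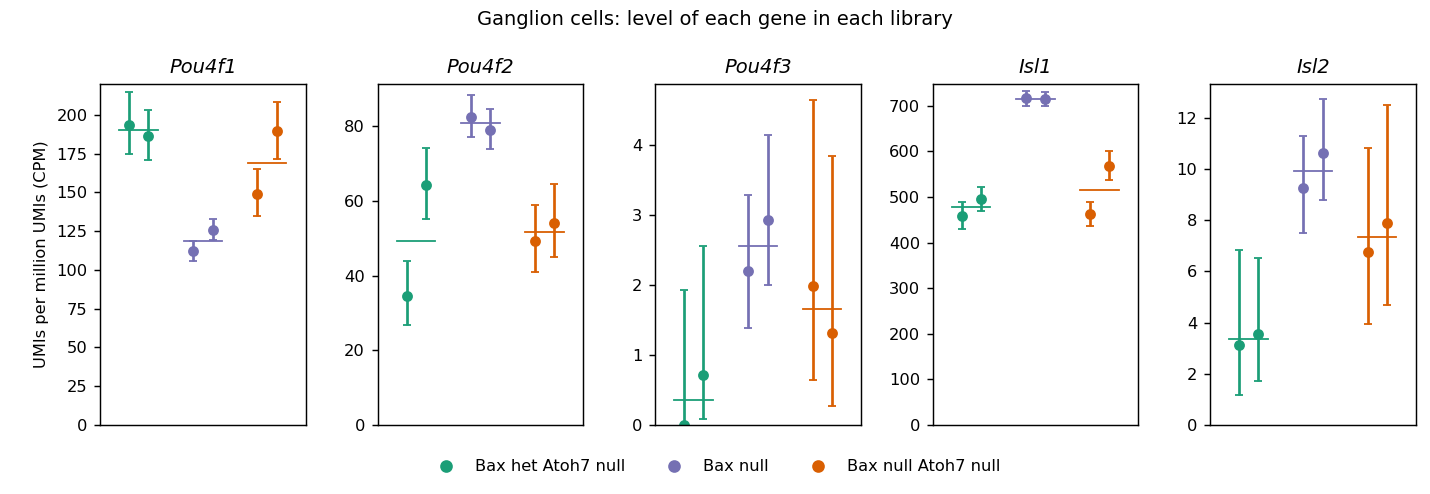
Level of each gene in ganglion cells in CPM (vertical axis from 0), with 1 point per library, exact Poisson 95% intervals for counting error only, and a line at the mean of the 2 libraries of a genotype. The Bax null libraries are the highest for Pou4f2, Pou4f3, Isl1 and Isl2 and the lowest for Pou4f1.

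Markers of other cell types moved with the groups in ganglion cells. The 7 neurogenic markers summed to 2148 to 2477 CPM with Bax het Atoh7 null, 1027 to 1068 CPM in the Bax null libraries and 2278 to 2382 CPM with Bax null Atoh7 null. The 7 progenitor markers summed to 1043 to 1073, 317 to 481 and 1106 to 1355 CPM, the 4 horizontal markers to 1157 to 1232, 514 to 521 and 1306 to 1403 CPM, the 6 amacrine markers to 153 to 155, 20 to 21.1 and 121 to 153 CPM, and the 6 cone markers to 73.1 to 76.7, 43.6 to 45.3 and 94.0 to 96.7 CPM. Blood markers summed to 935 to 1109 CPM in the Bax null libraries and at most 247 CPM elsewhere. Pigment epithelium, endothelial, microglial and lens lists stayed under 7 CPM, with Cdh5 at 0. These sums are in CPM without TMM scaling. On that scale the median log2 change of all genes against Bax null was 0.63 (Bax null Atoh7 null) and 0.50 (Bax het Atoh7 null). The part of these markers in the results for the 5 genes was not tested.

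The loss of Bax in embryos that already lacked Atoh7 (Bax null Atoh7 null relative to Bax het Atoh7 null) was not followed by a called change in any of the 4 members tested in ganglion cells. By edgeR, 2.34% of genes were called (248, or 73 to 433 with 1 library left out, lowest without Bax het Atoh7 null replicate 2 and highest without the library labelled replicate 1 of Bax null Atoh7 null). Isl1 changed by -0.01 (SE 0.117, adjusted p = 0.985), Pou4f2 by -0.11 (SE 0.212, adjusted p = 0.891) and Pou4f1 by -0.29 (SE 0.116, adjusted p = 0.295). Isl2 changed by 0.99 (SE 0.384, adjusted p = 0.271), and its 2 Bax null Atoh7 null libraries lay above both others, as those of 33.8% of all genes did. These tests do not show that the levels were equal. Library totals alone gave 0.01 for Pou4f2 and 0.11 for Isl1, so neither has a settled sign.

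The 2 contrasts with Bax null share its libraries, and the 2 with Bax null Atoh7 null share that group, so they are not independent of each other.

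The share of ganglion cells with a UMI depends on depth, so each cell was thinned to 1000 UMIs and shallower cells were left out (0 with Bax het Atoh7 null, 10 and 14 in the Bax null libraries, 80 and 56 with Bax null Atoh7 null). At this depth an Isl1 UMI was found in 26.8% and 29.3% of ganglion cells with Bax het Atoh7 null, 48.2% and 46.6% in the Bax null libraries, and 28.6% and 33.6% with Bax null Atoh7 null. Progenitors, which should lack the gene, had one in 0.213% to 0.411% of cells at the same depth. The Bax null shares lay above all others. With all UMIs the shares, in the same order, were 44.5% and 47.4%, 88.4% and 89.8%, and 42.0% and 44.3%, against 0.581% to 1.47% in progenitors, whose median depth was 1713 to 6977 UMIs. On the logit scale the thinned share fell by 0.69 (SE 0.105, limma adjusted p = 1.22e-04) with Bax null Atoh7 null and by 0.84 (adjusted p = 3.95e-05) with Bax het Atoh7 null, both relative to Bax null. Of 3533 genes tested, 69.3% and 60.9% were called in these contrasts, 13% and 11.5% as lower.

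Pou4f2 was found at 1000 UMIs in 4.20% and 6.72% of ganglion cells with Bax het Atoh7 null, 8.40% and 7.71% in the Bax null libraries, and 5.78% and 5.73% with Bax null Atoh7 null, against at most 0.083% of progenitors. The share fell with Bax het Atoh7 null relative to Bax null (logit -0.43, SE 0.153, limma adjusted p = 0.0268), and the change with Bax null Atoh7 null was -0.36 (SE 0.153, adjusted p = 0.055). The first call was lost on leaving out Bax het Atoh7 null replicate 1 (-0.19) or either Bax null library (-0.39 and -0.48), while the second passed with another seed for thinning (-0.51, adjusted p = 0.0235). Pou4f1 was found, in the same order, in 13.5% and 13.1%, 9.42% and 11.2%, and 12.6% and 14.4% of ganglion cells, against 0.0495% to 0.425% of progenitors. Its thinned share rose by 0.31 on the logit scale (SE 0.107, adjusted p = 0.0224) with Bax null Atoh7 null and by 0.29 (adjusted p = 0.0323) with Bax het Atoh7 null, against backgrounds of 56.4% and 49.4% of genes called higher. The first of these calls was lost without Bax null replicate 1 (0.21) or Bax null Atoh7 null replicate 2 (0.23), and the second without Bax null replicate 1 (0.20) or either Bax het Atoh7 null library (0.27 and 0.31). With all UMIs the Pou4f1 shares turned over, to 28.3% and 24.9%, 34.5% and 37.6%, and 20.9% and 21.1%, and the first change became -0.75. Thinned counts carry the same shift over all genes as library totals, under which Pou4f1 was also higher.

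Pou4f3 and Isl2 were found in too few ganglion cells to be tested. With all UMIs, and in that order, Isl2 was found in 0.900% and 0.852%, 4.57% and 5.98%, and 1.21% and 1.23% of ganglion cells, and Pou4f3 in 0 to 1.15%. No member's share was called for Bax null Atoh7 null relative to Bax het Atoh7 null, where 4.67% of genes were. With 2 against 2 libraries an exact permutation test cannot give a p below 0.33, so none is given.

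**Figure D3:**
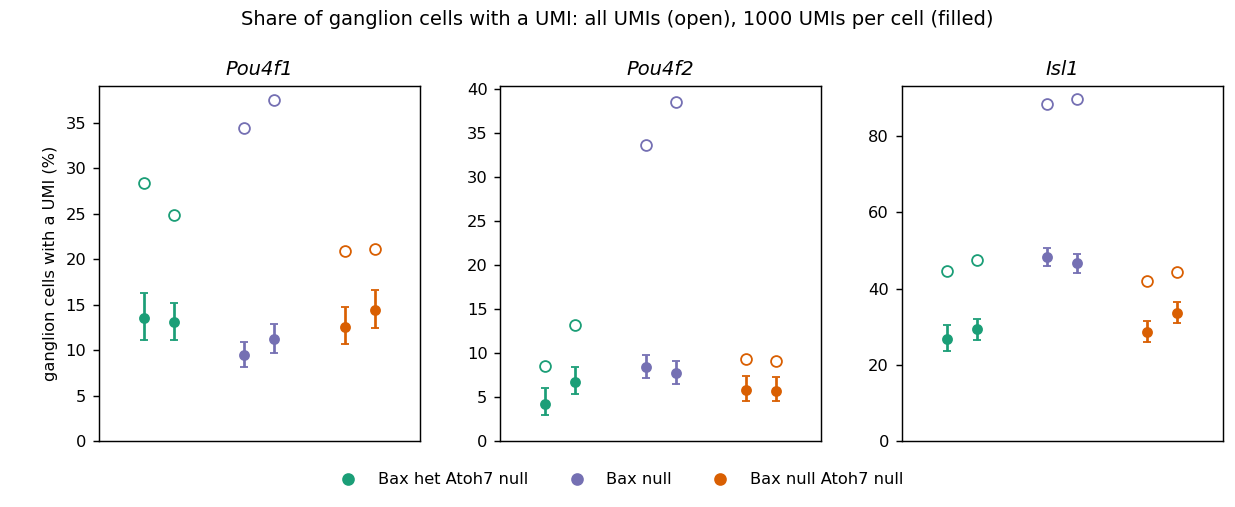
Percent of ganglion cells with at least 1 UMI of Pou4f1, Pou4f2 or Isl1 (vertical axis from 0), 1 point per library, with all UMIs (open circles) and after thinning to 1000 UMIs per cell (filled circles with Wilson binomial 95% intervals for counting error only). The Bax null share of Isl1 stays above the other 4 libraries at equal depth, whereas the Bax null share of Pou4f1 is the highest with all UMIs and the lowest at equal depth.

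Neurogenic cells, which are leaving the cell cycle and in which Atoh7 is normally at its highest, showed a larger loss of Isl1 and Pou4f2. Isl1 stood there at 37.3 and 36.2 CPM in the Bax null libraries, against 10.6 and 9.17 CPM with Bax het Atoh7 null and 8.60 and 10.2 CPM with Bax null Atoh7 null. The groups without Atoh7 overlapped each other and lay below Bax null, as 11.6% and 12.8% of genes did. Isl1 fell by 2.57 (log2, SE 0.137, edgeR adjusted p = 6.44e-08) with Bax null Atoh7 null and by 2.40 (SE 0.133, adjusted p = 9.75e-08) with Bax het Atoh7 null relative to Bax null, in tests where 47.3% and 47.1% of genes were called. Pou4f2, with 7 to 97 UMIs per library, fell by 2.23 (SE 0.336, adjusted p = 2.31e-04) and by 2.56 (SE 0.352, adjusted p = 1.32e-04). The changes with library totals alone were -1.98 and -1.89 for Isl1 and -1.64 and -2.06 for Pou4f2, all called.

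Isl2 and Pou4f1 went the other way in neurogenic cells. Isl2 stood at 2.47 and 2.27 CPM in the Bax null libraries, against 7.85 and 8.83 CPM with Bax het Atoh7 null and 9.76 and 8.38 CPM with Bax null Atoh7 null. It rose by 1.36 (log2, SE 0.238, edgeR adjusted p = 6.38e-04) and by 1.31 (SE 0.239, adjusted p = 9.31e-04) in the same 2 contrasts. Pou4f1 rose by 0.42 (SE 0.162, adjusted p = 0.0495) with Bax null Atoh7 null and by 0.60 (SE 0.159, adjusted p = 0.00884) with Bax het Atoh7 null. The first call was lost without the library labelled replicate 1 of Bax null Atoh7 null (0.31, adjusted p = 0.263) and with shared barcodes counted once (0.40, adjusted p = 0.0657), and both calls were lost with DESeq2 (adjusted p = 0.233 and 0.0589). The changes with library totals alone were 1.01 and 1.11 for Pou4f1 and 1.95 and 1.82 for Isl2. Between the 2 Atoh7 null groups no member was called in neurogenic cells, where 1.77% of genes were (206, or 7 and 466 without those same libraries, replicate 2 of Bax het Atoh7 null and replicate 1 of Bax null Atoh7 null).

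Marker lists moved with the groups in neurogenic cells too. The 9 ganglion markers summed there to 300 to 306 CPM in the Bax null libraries, against 760 to 817 CPM with Bax het Atoh7 null and 819 to 937 CPM with Bax null Atoh7 null. In the same order, the 7 neurogenic markers summed to 3002 to 3410, 5982 to 6284 and 6094 to 6935 CPM, and the 6 cone markers to 200.4 to 238, 341 to 358 and 352 to 420 CPM. Isl2 and Pou4f1 were higher in the groups where the ganglion and cone lists were higher, and Isl1 and Pou4f2 were lower there. These sums too are in CPM without TMM scaling. In neurogenic cells the median of all genes moved on that scale by 0.59 (log2, Bax null Atoh7 null) and 0.51 (Bax het Atoh7 null) against Bax null. The part of these markers in the changes was not tested.

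The genotype effect differed between ganglion and neurogenic cells of the same libraries for all 4 members tested. In a fit on the difference within each library, where 16.7% of genes were called, the Isl1 effect for Bax null Atoh7 null minus Bax null was higher (less of a fall) in ganglion cells by 1.48 (edgeR adjusted p = 5.72e-13), and that of Pou4f2 by 0.99 (adjusted p = 0.0261). The effect was lower in ganglion cells for Pou4f1 by a difference of -0.53 (adjusted p = 0.0127) and for Isl2 by a difference of -2.40 (adjusted p = 1.64e-07). A scaling shared by the types of a library cancels in this fit. Against progenitors of the same library, where 15.7% of genes were called, the effect in ganglion cells was lower for Isl1 by a difference of -1.31 (adjusted p = 6.90e-07) and for Pou4f1 by a difference of -0.93 (adjusted p = 0.00284). Pou4f1 itself changed by -0.10 in ganglion cells and rose by 0.82 in progenitors (adjusted p = 0.0282). The difference for Pou4f2 was -0.23 (SE 0.502, adjusted p = 0.828), with only 2 to 23 Pou4f2 UMIs per library in progenitors.

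In cells labelled horizontal, where markers of amacrine cells were also at their highest for 5 of 6 genes, only Pou4f1 and Isl1 passed the filter. Isl1, a factor of some amacrine cells, stood between 10.1 and 21.7 CPM and Pou4f1 between 7.22 and 21.8 CPM. Neither was called in any contrast, in tests that called 29.2%, 1.61% and 30.2% of genes. Isl1 changed by -0.67 (SE 0.386, edgeR adjusted p = 0.207, and -1.13 to -0.042 with 1 library left out) and Pou4f1 by 0.62 (SE 0.374, adjusted p = 0.224) with Bax null Atoh7 null against Bax null.

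Summed over all cells, Isl1 and Pou4f2 fell as well. Isl1 changed by -1.92 (log2, SE 0.212, edgeR adjusted p = 1.55e-04) and Pou4f2 by -2.10 (SE 0.308, adjusted p = 6.51e-04) with Bax null Atoh7 null against Bax null, while ganglion cells were 7.83% and 9.63% of cells against 17.3% and 16.9%. Pou4f1 fell by 0.58 (SE 0.123, adjusted p = 0.0043) with TMM but changed by 0.03 with library totals alone. Isl2 changed by 0.23 (SE 0.147, adjusted p = 0.224). No member was called for Bax null Atoh7 null relative to Bax het Atoh7 null, where 1.64% of genes were (234, or 0 on leaving out replicate 2 of Bax het Atoh7 null and 662 on leaving out the library labelled replicate 1 of Bax null Atoh7 null).

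Ganglion cells were then split within each library by whether they had an Isl1 UMI at 1000 UMIs per cell, and the summed counts were compared with the library as a block. Cells with Isl1 held more RNA of many ganglion cell effectors and less of several upstream factors and of some progenitor and neurogenic markers. Of 6755 genes, 267 were called (3.95%), 2.01% as higher. Of 22 tested ganglion cell effectors, genes of axons and neuronal structure from a list chosen with results of these data known, 14 were higher and 0 lower, with a median log2 difference of 0.35 against 0.00 over all genes. Neurofilament genes led it, Nefm by 1.12 and Nefl by 0.96, with the RNA-binding proteins Elavl4 by 0.79 and Rbpms by 0.79. Pou4f2 was higher by 0.76 (SE 0.155, edgeR adjusted p = 6.37e-04, higher in 6 of 6 libraries) and Pou4f1 by 0.62 (SE 0.118, adjusted p = 2.05e-04, higher in 4 of 6). Leaving out Bax het Atoh7 null replicate 2 gave 176 called genes, and leaving out replicate 2 of Bax null Atoh7 null gave 123.

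The genes highest with Isl1 beside Nefm were Ccer2 (1.66), Dusp4 (1.12), an ERK phosphatase, Th (1.11), which makes catecholamines, and Akap7 (1.0). Those lowest were Rhbdl3 (-1.81), Otx2 (-1.77), a photoreceptor factor, Hes5 (-1.61) and Nrarp (-1.45), which are Notch targets, and Sstr2 (-1.18). Among transcription factors, Ebf1, Ebf3, Irx2, Klf7 and Myt1 were higher, by 0.43 to 0.91, and Bhlhe22 was lower by a difference of -0.66. Of 10 tested upstream and competence factors, the proneural Neurog2 (-0.80) and Neurod1 (-0.71), Hes6 (-0.46) and Onecut2 (-0.36) were lower and Sox11 (0.20) was higher. Lmo1, a LIM-only protein that shares LIM partners with Islet factors, was higher by 0.97, and Lhx2, a progenitor LIM-homeodomain gene, was lower by a difference of -0.83. Markers of other cell types moved with this split. Of the 7 progenitor markers, all tested, 4 were lower with Isl1 (Lhx2, Sox2 by a difference of -1.15, Ccnd1 of -0.69 and Sfrp2 of -0.42) and 0 higher. Of the neurogenic markers, Btg2 (-0.67) and Gadd45a (-0.74) were lower beside Neurog2 and Hes6. Their part in the differences was not tested.

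A split by a Pou4f2 UMI separated fewer genes, 11 of 4978 (0.221%). Isl1 was higher in cells with Pou4f2 by 0.55 (SE 0.102, edgeR adjusted p = 6.83e-04, higher in 5 of 6 libraries). Without the library labelled replicate 1 of Bax null Atoh7 null it was 0.45 (adjusted p = 0.0503). Pou4f1 differed by -0.10 (SE 0.196, adjusted p = 0.981). Pou2f2 (0.71), Chrna3 (0.67), a nicotinic receptor subunit, Igfbpl1 (0.40) and Nefm (0.38) were also higher. Dkk3 (-1.01), Abracl (-0.83), Neurod1 (-0.72) and Onecut2 (-0.52) were lower. With another seed for thinning 5 genes were called, and 6 without the library labelled replicate 1 of Bax null Atoh7 null. A cell with no UMI at this depth may still hold the RNA, so both splits mix cells. Set apart by genotype, as a description, the Isl1 difference by Pou4f2 status was 0.08 in the Bax null libraries. Of the Atoh7 null groups, the one het for Bax had 0.87 and the one null for Bax 0.89. With another seed the values in this order were 0.26, 0.78 and 0.87. For Pou4f1 they were -0.74, -0.88 and 0.76, and -0.32, -0.03 and 0.23 with another seed. For neither gene was a difference between genotypes called.

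At 1000 UMIs per cell, Pou4f1 was found more often in ganglion cells with Isl1 than in those without in the Atoh7 null libraries, and slightly less often in the Bax null libraries. Among ganglion cells of the 4 Atoh7 null libraries, 19.0% to 19.8% of cells with an Isl1 UMI also had a Pou4f1 UMI, against 9.92% to 11.7% of cells without Isl1. In the Bax null libraries the shares were 8.72% and 10.5% with Isl1 and 10.1% and 11.8% without. The 4 Atoh7 null libraries went one way and the 2 Bax null libraries the other. With all UMIs, and so at unequal depth, the Bax null libraries went the same way as the others. There the shares were 36.4% and 40.0% with Isl1 and 19.9% and 16.1% without, against 32.4% to 42.1% with Isl1 and 11.4% to 17.3% without in the Atoh7 null libraries. As summed counts at 1000 UMIs, the log2 difference by Isl1 status in Pou4f1 was 0.94 with Bax null Atoh7 null and 1.2 with Bax het Atoh7 null, against -0.15 in the Bax null libraries. These values come from an edgeR fit chosen after the shares were seen and made on the same cells, so they are a description, with no test. Relative to the Bax null libraries the difference was larger by 1.09 (0.98 with shared barcodes counted once) and by 1.35, in fits that called 0.451% and 0.365% of 8209 genes.

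Pou4f2 was found more often in cells with Isl1 than in those without in all 6 libraries, with 12.1% and 9.07% against 3.26% and 4.04% with Bax null Atoh7 null, 6.15% and 11.3% against 3.48% and 4.82% with Bax het Atoh7 null, and 8.60% and 8.54% against 8.21% and 6.98% in the Bax null libraries. In the same descriptive fit the log2 difference by Isl1 status was larger than in the Bax null libraries by 1.45 with Bax null Atoh7 null and by 0.98 with Bax het Atoh7 null. The first moved with the random draw, to 0.58 with another seed for thinning, and to 0.80 at 1500 UMIs per cell. For Pou4f1 the same alternatives gave 1.2 and 1.38.

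**Figure D4:**
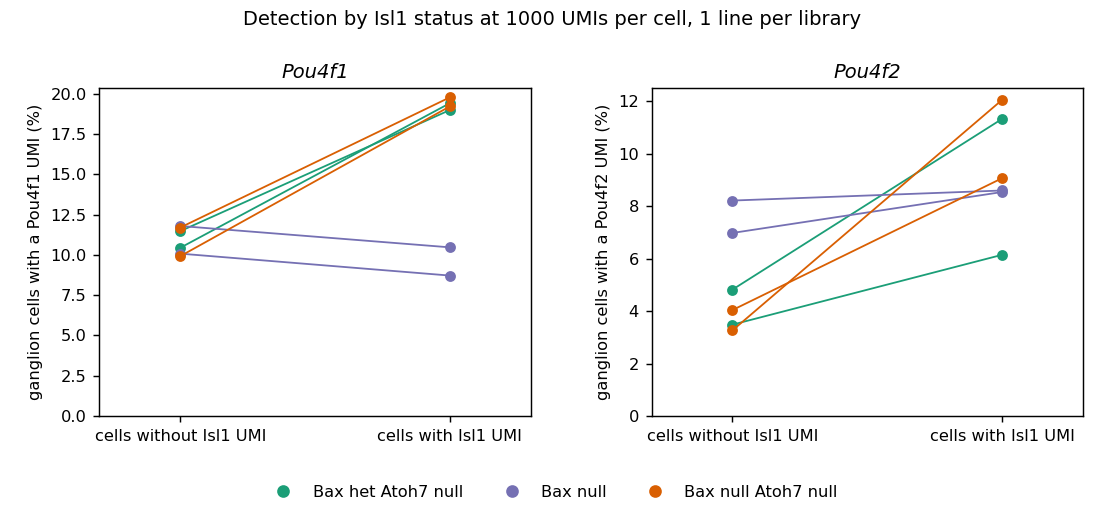
Percent of ganglion cells with a Pou4f1 UMI (left) or a Pou4f2 UMI (right), on vertical axes from 0, among cells without and with an Isl1 UMI at 1000 UMIs per cell, with 1 line per library. Lines for Pou4f1 climb from between 9.92% and 11.7% to between 19.0% and 19.8% in the 4 Atoh7 null libraries and decline slightly in the 2 Bax null libraries.

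The authors' clusters within the ganglion cell label showed that the 5 genes were not spread evenly, which is a description because the clusters were made from these cells. Of the 20 clusters, 7 (numbers 46, 53, 62, 63, 74, 90 and 129) were mostly from Atoh7 null libraries, and held 81.5% to 87.4% of the ganglion cells of each of these but 10.7% and 10.8% in the Bax null libraries. So different clusters make up most of the ganglion cells in the groups compared above. Levels by cluster are pooled over the 6 libraries, so the order of clusters mixes genotypes. For example, 2.40% of the cells of cluster 121 but 60.9% of those of cluster 74 came from Atoh7 null libraries. Pou4f2 was highest in clusters 67 (169 CPM), 19 (126 CPM), 96 (120 CPM) and 92 (102 CPM), where Pou4f1 was 14.6 to 78.7 CPM. Pou4f1 was highest in clusters 97 (282 CPM), 74 (241 CPM), 121 (234 CPM) and 75 (231 CPM), where Pou4f2 was 36.1 to 60.4 CPM. Isl1 ranged from 532 CPM (cluster 74) to 1197 CPM (cluster 67) in these 8 clusters. It was lowest of all in cluster 90 (130 CPM), where Pou4f1 (37.2 CPM) and Pou4f2 (14.9 CPM) were also low.

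The clusters with the most Pou4f3 and Isl2 were among those rich in Pou4f1, but not every Pou4f1-rich cluster held much of them. Clusters 131 and 121 held 25 and 20 of the 65 Pou4f3 UMIs, and 13 clusters held 0. Isl2 was highest in cluster 89 (44.6 CPM), followed by 121 (32.6 CPM) and 70 (21.1 CPM). In these, Pou4f1 was 177 to 234 CPM. Clusters 9, 62 and 63 had Pou4f1 at 203 to 223 CPM but Isl2 at 2.50 to 4.28 CPM. Of the cells of clusters 70, 89, 121 and 131, 2.40% to 7.69% came from Atoh7 null libraries.

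**Figure D5:**
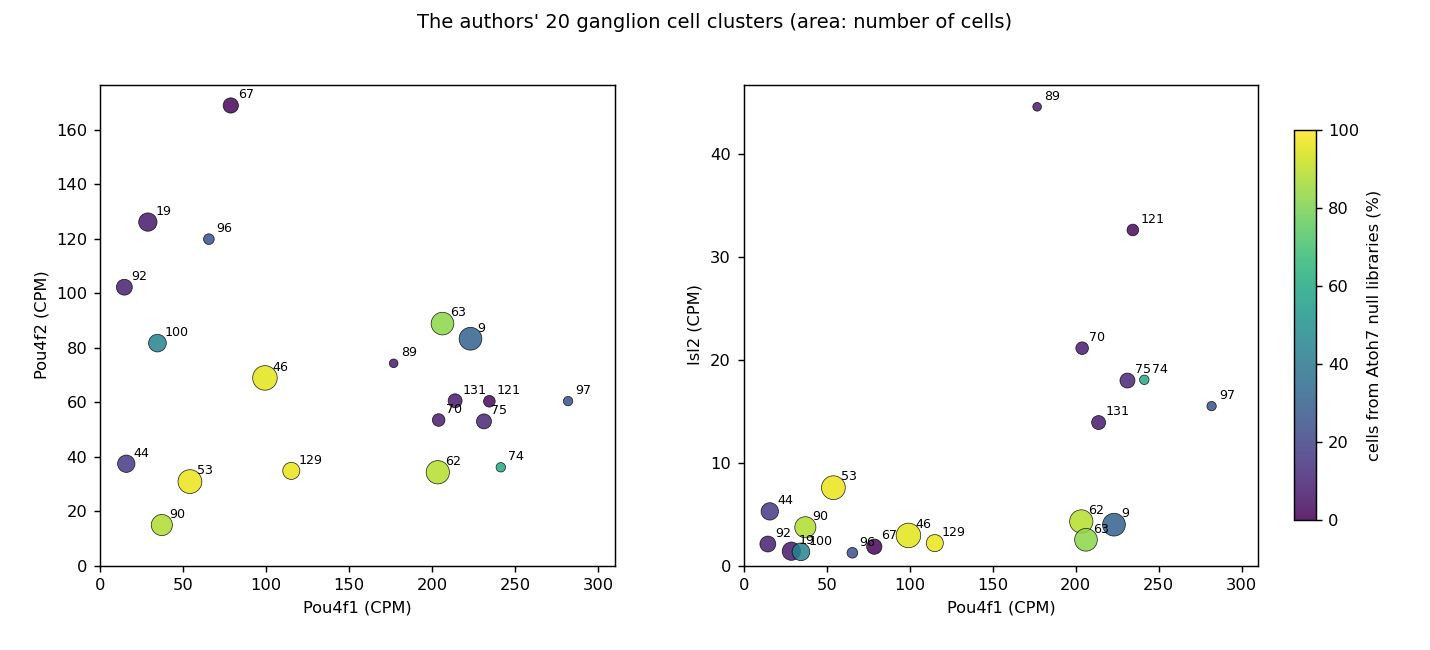
The 20 ganglion cell clusters by Pou4f1 level (horizontal axis, CPM over all 6 libraries) against Pou4f2 (left) and Isl2 (right), with area for the number of cells and colour for the percent of cells from Atoh7 null libraries. Clusters with the most Pou4f2 (67, 19, 96 and 92) have little Pou4f1, and clusters with the most Isl2 (89, 121 and 70) lie above 170 CPM of Pou4f1.

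Within several clusters, Pou4f1 levels were higher in Atoh7 null libraries, on the CPM scale on which 72.2% of all genes were higher. Cluster 9, of 636 cells, had Pou4f1 at 137 and 159 CPM in the Bax null libraries, against 622 and 605 CPM with Bax het Atoh7 null and 415 and 447 CPM with Bax null Atoh7 null. Its Isl1, in the same order, was 1043 and 1057, 1317 and 1163, and 915 and 946 CPM. The Bax null libraries had the lowest Pou4f1 and an intermediate Isl1. Of the 7 clusters with at least 10 cells of every library, all 4 Atoh7 null libraries lay above both Bax null libraries for Pou4f1 in 4 and below in 0. For Isl1 and for Isl2 they lay below in 2 and above in 0, and for Pou4f2 they overlapped in all 7. The share of all genes without overlap inside these clusters was not computed, so these counts have no background. Some rest on few UMIs, such as 3 and 3 Pou4f1 UMIs in the Bax null libraries in cluster 46. For Isl2, cluster 100 held 1 and 1 UMIs in the deeper Bax null libraries and 0 in each of the others. In the 13 clusters outside the set of 7, Pou4f1 stood at 112 and 127 CPM in the Bax null libraries, against 439 and 421 CPM with Bax het Atoh7 null and 316 and 380 CPM with Bax null Atoh7 null. Isl1 there, in the same order, was 748 and 730, 900 and 877, and 806 and 765 CPM. In CPM without TMM scaling, Isl1 was thus lowest in the Bax null libraries, unlike in ganglion cells as a whole. On that scale the median gene in all ganglion cells was higher by 0.63 (log2) with Bax null Atoh7 null than with Bax null. With Bax het Atoh7 null it was higher by 0.50. TMM-scaled changes inside these 13 clusters were not computed, and the Bax het Atoh7 null levels rest on 84 and 175 cells. Pou4f2 in these clusters overlapped, at 87.7 and 80.8, 51.7 and 91.7, and 86.1 and 45.7 CPM.

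Other genes of the ganglion cell program were read from 4 lists chosen with results of these data known, for Bax null Atoh7 null minus Bax null. Of 22 tested effectors, 15 fell and 1 rose, with a median log2 change of -1.03 against 0.02 over all genes, of which 26.5% were called lower and 26.2% higher. The synuclein gene Sncg fell by 3.94, Gap43, a growth cone protein, by 1.23 and Nefl by 1.38, whereas Nefm changed by -0.02 (0.59 with library totals alone). Of 18 other ganglion cell transcription factors, 11 fell and 2 rose, with Irx3 at -4.19, Irx2 at -3.56 and Ebf1 at -2.37, and Zic2 at 2.76 and Bhlhe22 at 1.59. With library totals alone, where 9.27% of all genes were called lower and 60.8% higher, the counts were 12 lower and 7 higher for effectors, and 8 lower and 7 higher for the factors.

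Of 11 upstream and competence factors, 7 rose and 2 fell, against 26.2% and 26.5% of all genes, with a median of 0.81. Neurog2 rose by 3.04, Insm1 by 2.31, Neurod1 by 2.15 and Sox4 by 1.89, all of newly born neurons, and Pax6 fell by 1.16. The list named LIM partners held Ldb, LIM-only, Lhx and Ssbp genes. Of its 8 tested genes, 2 rose and 6 fell, with Lmo2 at -6.70, Lmo1 at -1.57 and Ldb1 at -0.75 (-0.14 with library totals). Lmo2 stood at 31.7 and 29.7 CPM in the Bax null libraries, and at 0 and 0.879 CPM, too few UMIs for a precise fold, where Atoh7 was also null. With library totals alone the counts were 9 higher and 1 lower for upstream factors, and 3 and 3 for LIM partners, where 60.8% and 9.27% of all genes were called. In Bax null Atoh7 null relative to Bax het Atoh7 null, 1 upstream factor (Pax6, -0.74) and 2 transcription factors (Ebf1, -0.53, and Bhlhe22, -0.53) were called, all lower, in a contrast where 2.1% of genes were called lower. With library totals alone the factors had 1 call higher and 0 lower, and with 1 library left out 0 to 2 factors and 0 to 3 upstream factors were called lower.

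Over the 30 sums of 6 libraries by 5 cell types, which share libraries and depth, the gene most like Pou4f2 among 8463 was Isl1 (Pearson r of log2(CPM + 1) 0.946), and Cntn2, Sncg and Scn9a were among the next. Among the genes most like Isl1 were Elavl4 (0.952), Pou4f2, Cntn2 and Nefl. Pou4f1 was most like Elavl4 (0.940), Syt4, Igfbpl1, Prdm8 and Fam78b, with Isl1 at rank 41 and Pou4f2 at rank 221. Isl2 stood apart, most like Lrp1b (0.933), Cplx2, Igsf21, Rbfox1 and Cdc42ep3, and at 0.273 with Pou4f2.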

How the data were processed

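Raw UMI counts (10x 3' v2) were deposited by the authors as a gene by cell matrix, with cell type labels and clusters. The submitters' processing notes name Cell Ranger 1.2.1 and mm10, and cell filters and clustering method were not given in the sources used here. The matrix sums equalled the authors' totals in all 67050 cells. A further 2 libraries in the cell table (26078 cells) belong to no sample of the series, and are not analysed here. UMIs were summed per library and cell type. edgeR 4.0.16 (R 4.3.3; filterByExpr, TMM, quasi-likelihood F test) was fitted on all 6 libraries with genotype as the term, and p-values were adjusted over all genes tested. The 2 splits had library as a block. Shares of cells thinned to 1000 UMIs, in genes found in at least 5% of cells in 2 libraries, were tested with limma 3.58.1 on logits. All tests were two-sided. The edgeR test in ganglion cells, the share test (both for Bax null Atoh7 null minus Bax null) and the Isl1 split were tried on simulated data. The within-library fits, the Pou4f2 split and DESeq2 were not. Those simulations changed a small part of the genes, whereas many genes moved in the comparisons with Bax null. No doublet caller was run. DESeq2 1.42.0 and the other alternatives are in the closing section. Members and lists were chosen with earlier results of these data known. Named genes were the 5 members, Atoh7 and Bax, list members, the 5 highest and 5 lowest genes of each split that were called and moved 1 way in 6 of 6 libraries, and the 5 genes most like each member, of which 1 is not reported here. Poisson and binomial intervals (95%) and floors of 3 UMIs cover counting error only.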

Additional observations from a re-analysis of the deposited data

Results flagged for a closer look

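The genotype effect in ganglion cells differed from that in neurogenic cells of the same libraries, by the within-library fit. For Bax null Atoh7 null minus Bax null the differences of the log2 effects (ganglion minus neurogenic cells) were -0.53 for Pou4f1, 0.99 for Pou4f2, 1.48 for Isl1 and -2.40 for Isl2. For Bax het Atoh7 null minus Bax null they were -0.44 for Pou4f1, 1.37 for Pou4f2, 1.31 for Isl1 and -3.39 for Isl2. Both sets share the Bax null libraries.

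The difference by Isl1 status within ganglion cells was set apart by genotype in a fit chosen after the shares of cells had been seen and made on the same cells, so these values are a description and no independent test. Relative to the Bax null libraries it was larger for Pou4f1 by 1.09 with Bax null Atoh7 null and by 1.35 with Bax het Atoh7 null, and for Pou4f2 by 1.45 with Bax null Atoh7 null. The Pou4f2 value was 0.58 with another seed for thinning.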

How the results depend on the processing

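Of 437 recomputed values for ganglion cell levels, shares, splits and counts of called genes, 364 kept their direction and their side of the threshold (counts within 1.5 times). The first contrast below is Bax null Atoh7 null against Bax null, the second Bax het Atoh7 null against Bax null, and the third Bax null Atoh7 null against Bax het Atoh7 null. For values not explained by fewer cells, genes or libraries, the cause was not tested.

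In ganglion cells, library totals gave 0.51 for Pou4f1 and -0.44 for Isl2 in the first contrast, 0.68 for Pou4f1 in the second, and 0.011 for Pou4f2 and 0.11 for Isl1 in the third. DESeq2 gave -1.06 for Isl2 in the first. Differences from progenitors of the same library were -0.93 for Pou4f1 and -0.23 for Pou4f2 in the first and -0.73 and 0.29 in the second. Differences from neurogenic cells, where the same genes also moved, were -0.53, 0.99 and 1.48 for Pou4f1, Pou4f2 and Isl1 in the first, -0.44, 1.37 and 1.31 in the second, and 0.18 for Isl1 in the third. Isl1 in the third was 0.065 with thinned cells and 0.079 without the 10% of cells with the most UMIs. Called genes numbered 3403 and 2984 with thinned cells in the first and second, 2144, 2080 and 14 against progenitors, 2067, 1997 and 3 against neurogenic cells, and 154 from only the 4 libraries of the third.

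With 1 library left out, Pou4f1 ranged from -0.25 to 0.033 in the first contrast, and in the third Pou4f2 from -0.44 to 0.48, Isl1 from -0.14 to 0.10 and the called genes from 73 to 433. Shares ranged from 0.21 to 0.40 for Pou4f1 and -0.40 to -0.31 for Pou4f2 in the first, 0.20 to 0.39 and -0.68 to -0.19 in the second, and -0.063 to 0.094 and -0.17 to 0.32 in the third. By Pou4f2 status Pou4f1 ranged from -0.34 to 0.067, Isl1 from 0.45 to 0.74 and called genes from 6 to 15. By Isl1 status called genes ranged from 123 to 255. Values of the third contrast outside ganglion cells ranged from -0.36 to 0.024 (Pou4f1), -0.42 to 0.91 (Pou4f2) and -0.14 to 0.19 (Isl2) in neurogenic cells, -0.081 to 0.30 for Pou4f1 in cells labelled horizontal, and -0.48 to 0.85 (Pou4f2), -0.19 to 0.43 (Isl1) and -0.20 to 0.12 (Isl2) in all cells. Isl1 in cells labelled horizontal ranged from -0.78 to 0.31 in the second.

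Shares without thinning gave -0.75 for Pou4f1 and -1.71 for Pou4f2 in the first contrast, -0.44 for Pou4f1 in the second, and -0.31, -0.16 and -0.12 for Pou4f1, Pou4f2 and Isl1 in the third. The Pou4f2 share in the first passed at 1500 UMIs (-0.53), with another seed (-0.51), on an arcsine scale (-0.045), without the 10% of cells with the most UMIs (-0.43) and with shared barcodes counted once (-0.39). In the third, the Pou4f1 share was -0.072 at 1500 UMIs and -0.0056 with shared barcodes once, and the Pou4f2 share -0.049 with another seed. By Pou4f2 status, another seed gave 0.0078 for Pou4f1 and 5 called genes. By Isl1 status, 1500 UMIs gave 422. The interaction with Pou4f2 status turned to 0.65 (1500 UMIs) and 0.29 (another seed) for Pou4f1 in the second contrast, and to -0.049 (1500 UMIs) and -0.080 (shared barcodes once) for Isl1 in the third.

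In neurogenic cells, thinned cells gave 0.21 for Isl1 and -0.43 for Isl2 in the third, where leaving out the 10% gave -0.087 for Isl2. In cells labelled horizontal, leaving out the 10% gave 1.09, 0.46 and 0.62 for Isl1 in the 3 contrasts in turn, and library totals gave 0.12 in the second. Over all cells, library totals gave 0.028 and 0.092 for Pou4f1 in the first and second and 0.045 for Isl2 in the third.

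The deviations of same-numbered libraries had correlations of 0.049, 0.153 and 0.022. Such low values give no sign of pairing but cannot show that libraries of the same number were prepared apart, and the main fit uses no pairing. With a replicate block 5673, 5415 and 326 genes were called in the 3 contrasts in turn, and the Pou4f2 share in the first passed (-0.36). Pou4f3 had too few UMIs for any of these fits in ganglion cells.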
